A study of Mus musculus with 16 samples.

Results

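The 10 genes described here encode precursors of forebrain neuropeptides: Sst (somatostatin), Npy (neuropeptide Y), Vip (vasoactive intestinal peptide), Cck (cholecystokinin), Pdyn (prodynorphin), Crh (corticotropin-releasing hormone), Nts (neurotensin), Adcyap1 (the peptide PACAP), Tac2 (neurokinin B) and Cort (cortistatin). They were taken by name from the 39179 gene rows of each library. RNA came from neurons of adult TERT-AD mice, strain B6.129S6.SvEvTac, and the 4 groups were hippocampal neurons of tamoxifen-treated mice, hippocampal neurons of control mice, cortical neurons of tamoxifen-treated mice and cortical neurons of control mice. The study's title names Tert activation, and the treatment was tamoxifen or vehicle, so the controls carry the same line and differ in the drug. The promoter and cells that drive the activation, the age in numbers, the sex, the number of animals and the isolation of the neurons are not stated in the labels.

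Each group had 4 libraries. Libraries 1 and 2 of a group resembled each other far more than the rest, as did libraries 3 and 4, and each such pair was added up, which gave 2 samples per group, called A (libraries 1 and 2) and B (libraries 3 and 4). Levels are counts scaled to 1e6 counts in gene rows (CPM), and every mean below has n = 2 samples. Nothing states that A and B are different animals, so a p-value here speaks of the spread between A and B, which may be technical.

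The 8 samples held 83527470 to 108293362 counts in genes. Tert itself stood at 1.04 and 2.16 CPM in hippocampal tamoxifen samples A and B, against 1.47 and 3.89 CPM in the hippocampal controls. In cortex it had 1.04 and 2.34 CPM under tamoxifen, against 0.473 and 1.11 CPM in controls, and neither contrast passed (edgeR adjusted p = 1 in hippocampus and 0.834 in cortex). The sources do not say whether transcripts from the activated allele are counted under Tert. All neuronal markers were detected, with 9 pan-neuronal genes summing to 2034 to 4581 CPM, led by Map2. Transcripts of other cells were present too: 8 oligodendrocyte genes, led by Mbp, summed to 24091 to 72645 CPM, 8 astrocyte genes, led by Aldoc, to 2724 to 5562 CPM, and 8 microglial genes, led by Csf1r, to 616 to 2157 CPM. Choroid plexus genes, led by Ttr, summed to 5.5 CPM in the lowest sample and 17164 CPM in the highest. No marker list had a gene at 0 over all samples. In such bulk RNA, fewer peptide-producing cells and less RNA per cell cannot be told apart.

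Cortical tamoxifen sample B stood apart from the other 3 cortical samples. Mitochondrial genes took 20.4% of its counts, against 29.9 to 31.5% in those 3, and its summed pan-neuronal level of 4581 CPM compares with 2184 to 2652 CPM in them. Its oligodendrocyte sum was 24091 CPM against 52924 to 67361 CPM. Cortical results below are therefore given with and without it.

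Neuropeptides are made as precursors, cut by prohormone convertases, stored in dense-core granules and released to act on G protein-coupled receptors. In cortex and hippocampus, Sst, Npy, Vip, Cort and Crh are best known from GABA-releasing interneurons, Cck from interneurons and from many excitatory cells. Pdyn marks dentate granule cells of the hippocampus and scattered cortical neurons, while Adcyap1, Nts and Tac2 are restricted to smaller populations. Transcription of several of these genes, Sst above all, is known to respond to cyclic AMP through the factor CREB, whose binding site is the cyclic AMP response element.

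Upstream sequences are shown because that element is the best known control site of these genes. RefSeq start sites on GRCm38.p6, the patched form of mm10, gave 11 promoter entries for 9 of the 10 genes. Crh had no entry, so its upstream sequence was not searched. Each line holds the 100 bases ahead of the start, 5′ to 3′ on the gene's strand, and capitals mark the full element TGACGTCA or its 5-base core, which reads TGACG on the gene's strand or, where it lies on the opposite strand, CGTCA.
Sst, chr16:23890845-23890944, minus strand: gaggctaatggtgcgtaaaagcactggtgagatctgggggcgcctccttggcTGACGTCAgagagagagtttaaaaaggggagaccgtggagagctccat
Vip, chr10:5639118-5639217, plus strand: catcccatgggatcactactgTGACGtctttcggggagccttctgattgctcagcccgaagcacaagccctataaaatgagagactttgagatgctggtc
Cck, chr9:121495695-121495794, minus strand: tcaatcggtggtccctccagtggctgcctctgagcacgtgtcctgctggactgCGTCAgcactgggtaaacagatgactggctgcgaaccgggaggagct
Adcyap1, chr17:93198917-93199016, plus strand: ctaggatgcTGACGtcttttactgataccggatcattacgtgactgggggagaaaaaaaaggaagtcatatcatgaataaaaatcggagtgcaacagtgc
Cort, chr4:149126764-149126863, minus strand: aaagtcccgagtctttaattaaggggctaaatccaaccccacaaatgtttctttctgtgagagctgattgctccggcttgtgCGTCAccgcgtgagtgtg
Npy, chr6:49822610-49822709, plus strand: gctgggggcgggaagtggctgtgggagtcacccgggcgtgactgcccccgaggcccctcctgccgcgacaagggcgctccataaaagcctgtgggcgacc

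The full element was found in Sst, where its first base lies 48 bases before the start. Over the 250 upstream bases searched on both strands, the full element occurred in 1.55% of 32851 promoters and in 1.77% of 27025 genes. The 5-base core, which the full element contains, was found in Sst, Vip (79 bases before the start), Cck (47), Nts (166), Adcyap1 (91) and Cort (18), which makes 6 of 9 genes, against 19.8% of genes in the table. Npy, Pdyn and Tac2 had neither in this window. These are letter matches only, and the levels were not tested against them.

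Per length of exon, Cck was the most abundant member in every group. Its level per kilobase was 85.2 and 65.8 CPM in the hippocampal tamoxifen samples A and B, 75.7 and 63.9 in the hippocampal controls, 81.7 and 257.7 in the cortical tamoxifen samples and 83.2 and 82.0 in the cortical controls. Sst came next and Npy after it, and in each single sample Cck held 61.2 to 73.4% of the members' sum per length, Sst 17.3 to 24.1% and Npy 5.90 to 12.9%. The other 7 genes stood far lower, with Cort leading them in the means of all 4 groups at 1.21 ± 0.0237 CPM per kilobase (SD) in hippocampal tamoxifen samples and 1.26 ± 0.217 in hippocampal controls, and 2.01 ± 0.755 in cortical tamoxifen samples and 1.84 ± 0.417 in cortical controls.

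**Figure D1:**
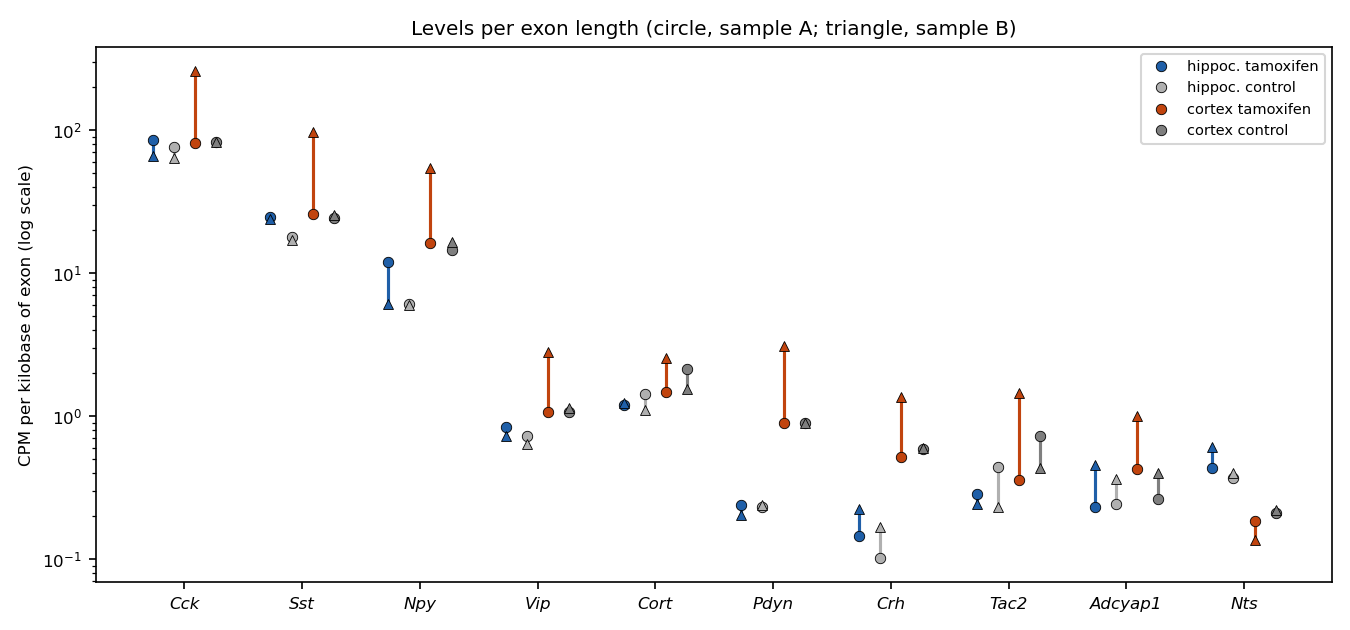
Level of each precursor gene per kilobase of exon, in CPM on a log axis, for the 4 groups; circles are samples A and triangles samples B, joined by a line. Cck, Sst and Npy sit above the other 7 genes in every group, and cortical tamoxifen sample B is the high triangle in most genes, but not in Nts.

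The lower ranks differed between the regions. Nts had rank 6 of 10 in both hippocampal groups and rank 10 in both cortical groups. Pdyn had rank 9 in both hippocampal groups, rank 5 in cortical tamoxifen samples and rank 6 in cortical controls. Crh had rank 10 in both hippocampal groups and rank 7 in both cortical groups. Neighbours in the order did not all separate: in hippocampal controls the samples of Nts, Tac2 and Adcyap1 overlapped, and in cortical controls those of Crh and Tac2 did. In cortical tamoxifen samples the ranges of neighbours overlapped from Cort down to Adcyap1, and those of Cck, Sst and Npy overlapped as well, because sample B lay so far above sample A.

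Among the interneuron peptides, Sst (chr16:23889581-23890844, minus strand, mm10) encodes the inhibitory peptide of dendrite-targeting interneurons. It had 14.7 and 14.3 CPM in hippocampal tamoxifen samples A and B, against 10.6 and 10.1 CPM in hippocampal controls. In cortex Sst stood at 15.5 and 57.8 CPM under tamoxifen, against 14.5 and 15.3 CPM in controls. Both tamoxifen groups lay above their controls without overlap, narrowly in cortical sample A and widely in cortical sample B.

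Npy (chr6:49822710-49829507, plus strand), a peptide that dampens excitatory release, had 6.67 and 3.41 CPM in hippocampal tamoxifen samples, against 3.42 and 3.33 CPM in hippocampal controls. It had 9.11 and 30.6 CPM in cortical tamoxifen samples, against 8.13 and 9.32 CPM in cortical controls. A single sample was high in each region, hippocampal A and cortical B, and the groups overlapped in both.

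Vip (chr10:5639218-5647614, plus strand) marks interneurons that mainly inhibit other interneurons. It had 1.26 and 1.10 CPM in hippocampal tamoxifen samples, against 1.11 and 0.970 CPM in hippocampal controls, and 1.62 and 4.25 CPM in cortical tamoxifen samples, against 1.62 and 1.74 CPM in cortical controls. Cort (chr4:149125034-149126763, minus strand), a relative of somatostatin that binds the same receptors, varied little: 0.808 and 0.831 CPM in hippocampal tamoxifen samples, against 0.955 and 0.748 CPM in hippocampal controls. Cort stood at 0.994 and 1.71 CPM in cortical tamoxifen samples, against 1.44 and 1.04 CPM in cortical controls. The groups of both genes overlapped in both regions.

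Crh (chr3:19693401-19695396, minus strand), the stress hormone releaser that cortical interneurons also make, was scarce in hippocampus, with 0.190 and 0.295 CPM (20 and 32 counts) under tamoxifen, against 0.134 and 0.222 CPM (14 and 24 counts) in controls. In cortex it had 0.682 and 1.78 CPM under tamoxifen, against 0.781 and 0.792 CPM in controls. Tac2 (chr10:127724478-127731767, plus strand), which encodes a ligand of the neurokinin 3 receptor, had 0.247 and 0.212 CPM in hippocampal tamoxifen samples, against 0.382 and 0.203 CPM in hippocampal controls. Tac2 stood at 0.311 and 1.26 CPM in cortical tamoxifen samples, against 0.637 and 0.378 CPM in cortical controls, so its 2 cortical tamoxifen samples lay on either side of both controls.

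Cck (chr9:121489825-121495689, minus strand) had 58.1 and 44.9 CPM in hippocampal tamoxifen samples, against 51.7 and 43.6 CPM in hippocampal controls. In cortex Cck had 55.7 and 175.8 CPM under tamoxifen, against 56.7 and 55.9 CPM in controls, so sample B alone was high. Pdyn (chr2:129686565-129699844, minus strand), the source of dynorphins that act on the kappa opioid receptor, had 0.685 and 0.582 CPM in hippocampal tamoxifen samples, against 0.669 and 0.684 CPM in hippocampal controls. It had 2.57 and 8.96 CPM in cortical tamoxifen samples, against 2.56 and 2.59 CPM in cortical controls, so 3 of the 4 cortical samples were nearly equal.

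Adcyap1 (chr17:93199422-93205485, plus strand) encodes PACAP, a peptide that raises cyclic AMP. It had 0.485 and 0.942 CPM in hippocampal tamoxifen samples, against 0.506 and 0.758 CPM in hippocampal controls, and 0.886 and 2.08 CPM in cortical tamoxifen samples, against 0.545 and 0.827 CPM in cortical controls. Nts (chr10:102481760-102490418, minus strand), a peptide that modulates dopamine signalling, ran the other way between the regions. Nts stood at 0.504 and 0.711 CPM (53 and 77 counts) in hippocampal tamoxifen samples, against 0.430 and 0.471 CPM (45 and 51 counts) in hippocampal controls. In cortex it had 0.215 and 0.160 CPM (18 and 16 counts) under tamoxifen, against 0.247 and 0.260 CPM (24 and 22 counts) in controls, so its tamoxifen samples lay above the controls in hippocampus and below them in cortex. No member overlaps another gene row of the files on either strand.

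**Figure D2:**
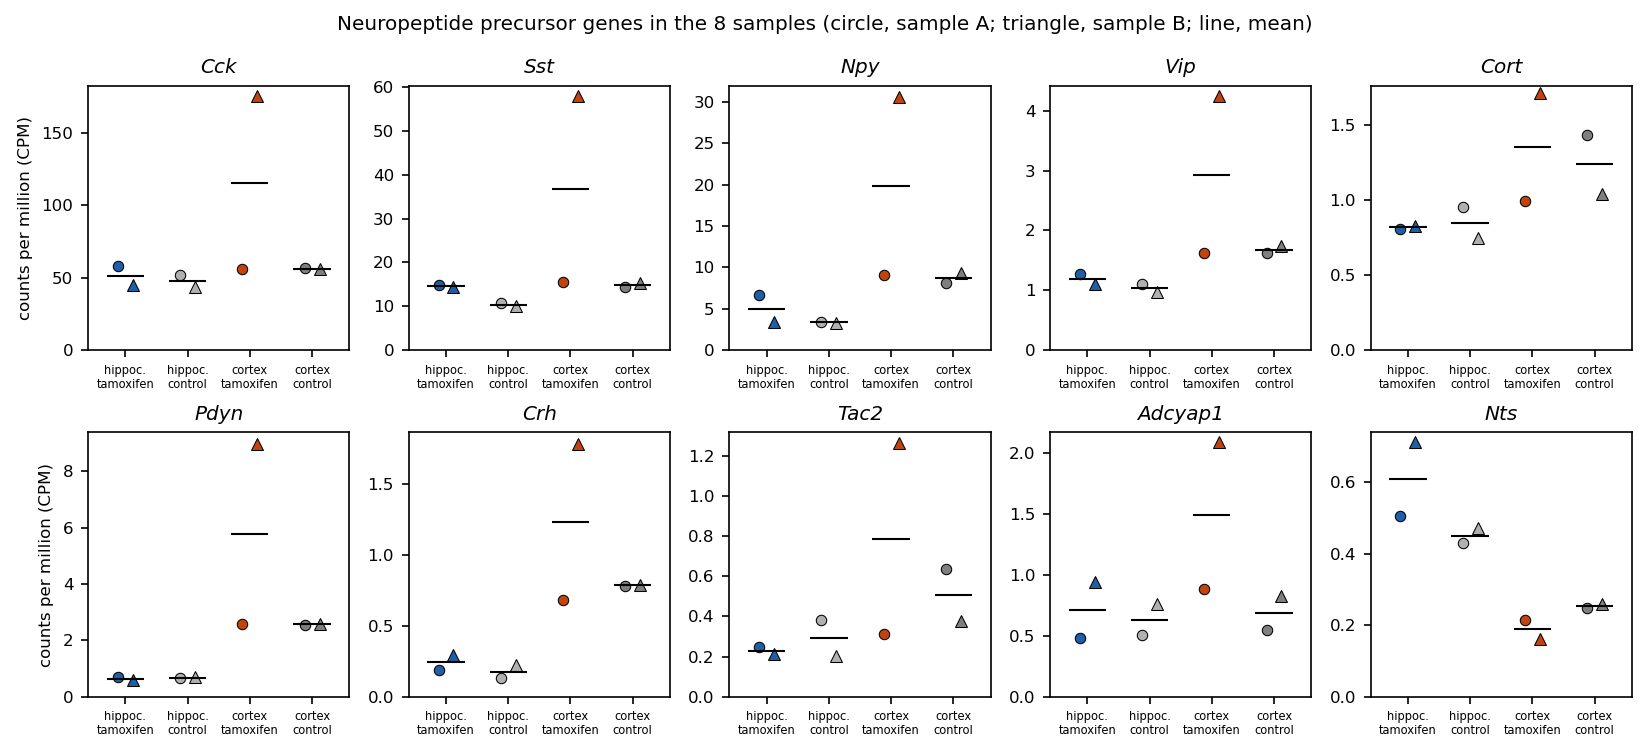
CPM of the 10 genes in the 8 samples, a panel per gene, each axis starting at 0; circles are samples A, triangles samples B and lines group means. Cortical tamoxifen sample B stands alone in 8 panels, and Nts is lowest in that sample.

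In cortex, 0 of 10 members passed the test of tamoxifen against control (edgeR quasi-likelihood test, Benjamini-Hochberg adjusted over 18074 genes, threshold 0.05), where 0% of all genes passed. At an unadjusted p under 0.05 there was 1 member, Sst, against 899 genes in all (4.97%). DESeq2 called 0 members and 8 genes (0.0443%), and limma voom 0 members and 15 genes (0.0896%). The log2 fold change of Sst was 0.99 (SE 0.40, adjusted p = 0.830), of Npy 0.89 (SE 0.44), of Pdyn 0.87 (SE 0.40), of Adcyap1 0.85 (SE 0.49), of Cck 0.75 (SE 0.35) and of Vip 0.53 (SE 0.33), all at the same adjusted p. The lowest was Nts at -0.59 (SE 0.46, adjusted p = 0.831). The median of the members was 0.64 with 8 of 10 above 0, beside a median of 0.04 over all genes with 55.4% above 0.

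Of the 10 members, 2 lay above the controls without overlap in CPM, Sst and Adcyap1, where 20.8% of all genes did so, and 1 lay below, Nts, where 6.29% did. With mitochondrial genes left out of the total, Sst overlapped and 1 member lay above, where 14.9% of all genes did. On the TMM scale, the scale of the tests, Cck and Pdyn were also above without overlap, which makes 4 members, where 16.2% of all genes did so. Without scaling factors the median log2 fold change over all genes would be 0.25 in cortex and 0.38 for hippocampus over cortex in controls, against 0.04 and 0.00 with TMM, so fold changes are relative to TMM and differ from ratios of the CPM printed here.

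Without cortical tamoxifen sample B the members' median was 0.01, with 5 of 10 above 0. Sst was then at 0.10, Npy at 0.10, Pdyn at 0.04, Cck at 0.03 and Vip at -0.01, and Adcyap1 kept 0.41. Leaving out cortical tamoxifen sample A instead gave 3 members past the threshold, Sst (1.53, adjusted p = 0.00689), Cck (1.22, adjusted p = 0.00983) and Pdyn (1.38, adjusted p = 0.0181), where 6.14% of all genes were called higher. That fit rests on sample B alone for the tamoxifen group and takes its spread from the other groups.

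Sample B exceeded the mean of the other 3 cortical samples at least 2-fold in 8 of 10 members, where 15.1% of all genes did so. The ratio was 3.83 for Sst, 3.48 for Pdyn, 3.45 for Npy, 3.13 for Cck, 2.86 for Tac2, 2.77 for Adcyap1, 2.56 for Vip and 2.37 for Crh, against 1.48 for Cort and 0.666 for Nts. The median was 2.81 over the members and 1.36 over all genes. On the TMM scale the medians were 2.09 for the members and 1.01 for all genes. There 6 of 10 members reached 2-fold, with Vip at 1.90 and Crh at 1.76 no longer among them. The share of all genes that did so on that scale is not given here.

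Neuronal lists were high in that sample by their medians. The median ratios were 2.49 for 9 pan-neuronal markers, 2.49 for 7 excitatory markers, 1.84 for 23 interneuron genes and 2.36 for 7 striatal markers. At least 2-fold were 6 of the pan-neuronal markers, 5 of the excitatory, 10 of the interneuron and 7 of the striatal ones. Map2 at 1.38, Nefl at 1.34, Nefm at 1.38 and Camk2a at 1.26 lay near the median of 1.36 over all genes. Oligodendrocyte markers had a median ratio of 1.10, astrocyte markers 1.03, endothelial and mural markers 0.688 and choroid plexus markers 0.0121. The choroid plexus ratio is not particular to cortical tamoxifen sample B. Its choroid plexus sum of 5.5 CPM was close to the 6.04 CPM of cortical control sample B. The sums were 936 CPM in cortical control sample A and 5035 CPM in cortical tamoxifen sample A, which set the mean. Set against Snap25, a synaptic gene, Cck had 17.0 counts per 100 Snap25 counts in both cortical tamoxifen samples, against 15.7 and 15.05 in cortical controls, and Npy had 2.78 and 2.96, against 2.25 and 2.51. Sst had 4.73 and 5.60 on that scale under tamoxifen, against 4.01 and 4.12 in controls. Pdyn had 0.786 and 0.869 under tamoxifen, against 0.708 and 0.696 in controls. Relative to Snap25, sample B thus differed little from sample A for Cck, Npy and Pdyn, and Cort, with 0.303 and 0.166 under tamoxifen, against 0.398 and 0.280 in controls, was lowest in sample B. Against the counts of Gad1 plus Gad2, which encode the enzymes that make GABA, sample B stood further apart. Per 100 of those counts, Sst had 31.3 and 47.6 under tamoxifen, against 26.8 and 25.2 in controls, and Npy had 18.4 and 25.2, against 15.05 and 15.4. Cck had 112 and 145 on that scale under tamoxifen, against 105 and 92.2 in controls, and Pdyn had 5.20 and 7.38, against 4.74 and 4.26. Sample B was the highest cortical sample for these 4 genes on the Gad1 plus Gad2 scale, so how far it stands out depends on the gene it is set against. Of the members' sum per length, Cck held 61.2% in sample B, against 63.3 to 73.4% in the other 7 samples. Sst held 23.0%, against 17.3 to 24.1%, and Npy 12.9%, against 5.90 to 12.8%. Pdyn held 0.738%, against 0.190 to 0.695%, and Cort 0.603%, against 0.957 to 1.67%. Nts took 0.0325% of that sum in sample B and 0.143 to 0.610% in the other 7 samples.

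**Figure D3:**
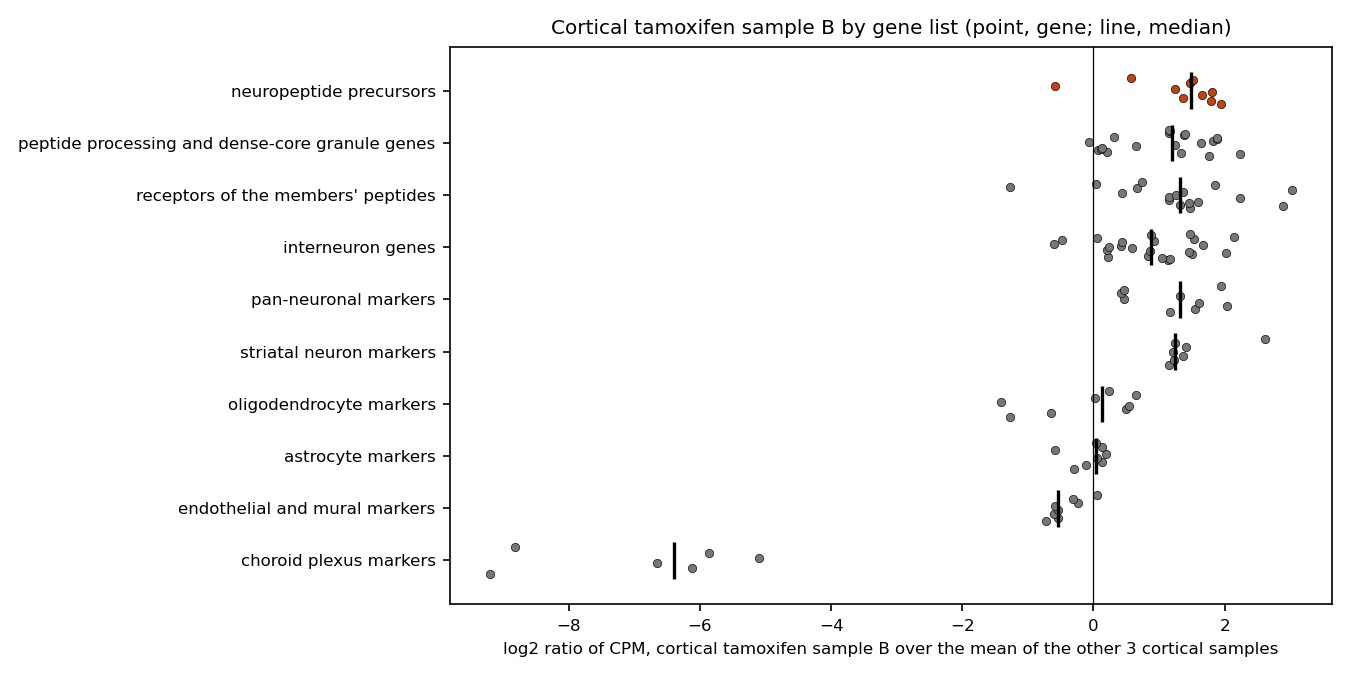
Log2 ratio of CPM in cortical tamoxifen sample B over the mean of the other 3 cortical samples, for genes of each list with at least 30 counts in those 3; a point is a gene and a line the list's median. Precursor genes have a median ratio of 2.81, near the pan-neuronal markers at 2.49, while choroid plexus markers lie far to the left at 0.0121. Choroid plexus markers were about as low in cortical control sample B, so their ratio rests on high levels in the cortical samples A.

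In hippocampus, 0 of 10 members passed (0% of all genes, edgeR), and 0 had an unadjusted p under 0.05, against 653 genes (3.61%). DESeq2 called 0 members and 9 genes (0.0498%), and limma voom 0 members and 3 genes (0.0179%). The log2 fold change was 0.60 for Npy (SE 0.44), 0.52 for Sst (SE 0.39), 0.48 for Crh (SE 0.49), 0.47 for Nts (SE 0.43), 0.22 for Vip (SE 0.33), 0.21 for Adcyap1 (SE 0.49) and 0.15 for Cck (SE 0.34), with an adjusted p of 1 for each. Cort at -0.02, Pdyn at -0.06 and Tac2 at -0.31 were the remaining ones. The members' median was 0.22 with 7 of 10 above 0, beside -0.01 and 48.7% over all genes.

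Sst and Nts lay above the hippocampal controls without overlap in CPM, where 14.6% of all genes did. On the TMM scale Npy and Vip did so too, which makes 4 members, where 21.0% of all genes did, and with mitochondrial genes left out there were 2, where 15.7% did. For Sst the value moved little when any single sample was left out, from 0.50 to 0.53, whereas Npy ran from 0.08 to 0.97. Gad1 and Gad2 were also higher in CPM without overlap: Gad1 stood at 36.8 and 32.2 CPM in hippocampal tamoxifen samples, against 23.7 and 26.1 CPM in hippocampal controls. Gad2 had 20.8 and 16.05 CPM under tamoxifen, against 11.8 and 13.7 CPM in controls. Per 100 counts of Gad1 plus Gad2, Sst had 25.6 and 29.6 counts under tamoxifen, against 29.9 and 25.4 counts in controls, so on this scale the groups overlapped.

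The tamoxifen effects in hippocampus and cortex were compared by their difference, and 0 of 10 members passed (0% of all genes, edgeR). None had an unadjusted p under 0.05, against 981 genes (5.43%), and limma voom called 0 members and 112 genes (0.669%). DESeq2 called 9 genes (0.0498%) and gave the members no adjusted p. The largest differences were in Nts, at 1.05 log2 units (SE 0.63, adjusted p = 0.912), and Pdyn, at -0.93 (SE 0.58, adjusted p = 0.914). Without cortical tamoxifen sample B the difference for Pdyn was -0.11, the lowest in size over all samples left out, and for Nts the values ran from 0.66 to 1.54.

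Hippocampus over cortex gave the differences of greatest size. Under tamoxifen 7 members lay lower in hippocampus without overlap in CPM, where 8.63% of all genes did, and in controls 7 did so, where 13.0% of all genes did. The counts were 9 under tamoxifen and 8 in controls on the TMM scale, where 24.1% and 33.4% of all genes lay lower, and also 9 and 8 with mitochondrial genes left out, where 10.3% and 18.1% did. Nts was higher without overlap in both, where 29.4% of all genes were under tamoxifen and 62.1% in controls. The members' median log2 fold change was -1.39 under tamoxifen and -1.0 in controls, beside -0.03 and 0.00 over all genes, and 9 of 10 were below 0 in each comparison. Pan-neuronal markers moved the same way, with 0 of 9 above 0 in each comparison and medians of -1.14 under tamoxifen and -0.81 in controls. Snap25 is among these markers and was itself lower in hippocampus, so values set against it shift upwards there. In controls, counts per 100 Snap25 counts were higher in hippocampus without overlap for Cck, Sst, Vip, Nts and Adcyap1. They were lower for Pdyn, Crh and, narrowly, Npy, and overlapped for Tac2 and Cort. The share of all genes that separated on this scale is not given here. Cck had 33.9 and 22.8 in hippocampal controls, against 15.7 and 15.05 in cortical controls. Pdyn had 0.439 and 0.358, against 0.708 and 0.696.

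The test called 1 member lower under tamoxifen and 2 lower in controls, and none higher. Pdyn passed in both comparisons. It was lower in hippocampus by a log2 fold change of -3.24 (SE 0.44, adjusted p = 0.0368) under tamoxifen, where 1.12% of all genes were called and 0.692% called lower. In controls it was -2.31 (SE 0.43, adjusted p = 0.0354), where 6.19% were called and 3.48% called lower. Crh passed in controls at -2.51 (SE 0.50, adjusted p = 0.0389) and missed under tamoxifen at -2.41 (SE 0.49, adjusted p = 0.0629). Npy differed by -2.04 (SE 0.45, adjusted p = 0.0737) under tamoxifen and -1.75 (SE 0.45, adjusted p = 0.0643) in controls and passed in neither. The samples of Pdyn, Crh and Npy did not overlap between the regions.

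These calls rest on few samples. Crh in controls had an adjusted p of 0.0603 with limma voom, and Pdyn under tamoxifen 0.0735 without scaling factors. In controls the adjusted p of Pdyn was 0.164 to 0.252, and of Crh 0.174 to 0.263, without any single control sample, and 0.0558 to 0.0585 for both without either hippocampal tamoxifen sample, while it was 0.00239 and 0.00308 for Pdyn without cortical tamoxifen sample A and B. Under tamoxifen Pdyn stood at -2.42 (adjusted p = 0.0160) without cortical tamoxifen sample B, at -3.75 (adjusted p = 0.000798) without sample A, and at an adjusted p of 0.0794 to 0.211 without any of the other 6 samples. The fold change itself kept its direction in each of these fits.

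Under tamoxifen Vip was at -1.39 (SE 0.34), Sst at -1.38 (SE 0.40), Cck at -1.23 (SE 0.35), Tac2 at -1.82 (SE 0.61), Adcyap1 at -1.14 (SE 0.49) and Cort at -0.84 (SE 0.30), none past the threshold. Without cortical tamoxifen sample B these were -0.85 for Vip, -0.49 for Sst, -0.51 for Cck, -0.83 for Tac2, -0.69 for Adcyap1 and -0.67 for Cort, and Crh stood at -1.87, Npy at -1.26 and Nts at 1.10. In controls the values were -1.08 for Vip, -0.91 for Sst, -0.63 for Cck, -1.18 for Tac2, -0.50 for Adcyap1 and -0.93 for Cort. Nts was at 1.5 (SE 0.45, adjusted p = 0.125) under tamoxifen and 0.45 (SE 0.44, adjusted p = 0.549) in controls.

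Pdyn is also made by striatal neurons, so striatal markers are given beside it. The receptor gene Drd2 had 0.495 and 0.591 CPM in hippocampal tamoxifen samples and 0.382 and 0.388 CPM in hippocampal controls, against 3.39 and 14.7 CPM in cortical tamoxifen samples and 8.89 and 6.56 CPM in cortical controls. Within cortex both genes were highest in tamoxifen sample B, where Pdyn had 8.96 CPM. Pdyn was nearly equal in cortical tamoxifen sample A (2.57 CPM) and the cortical controls (2.56 and 2.59 CPM), where Drd2 varied. Drd2 is a single marker, and whether it tracks striatal Pdyn was not tested. Of 7 striatal markers tested, 2 were called lower in hippocampus under tamoxifen, where 0.692% of all genes were, and 4 in controls, where 3.48% were, with none called higher. The median log2 fold change of these 7 markers, hippocampus over cortex, was -2.47 under tamoxifen, with 0 above 0. In controls it was -2.6, with 1 above 0. The summed level of the list, led by Ppp1r1b, was 78.3 to 173 CPM in hippocampal and 162 to 466 CPM in cortical samples. The sums of the 2 regions thus overlapped, although the medians were far below 0. The part of striatal RNA in the values of Pdyn was not tested.

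**Figure D4:**
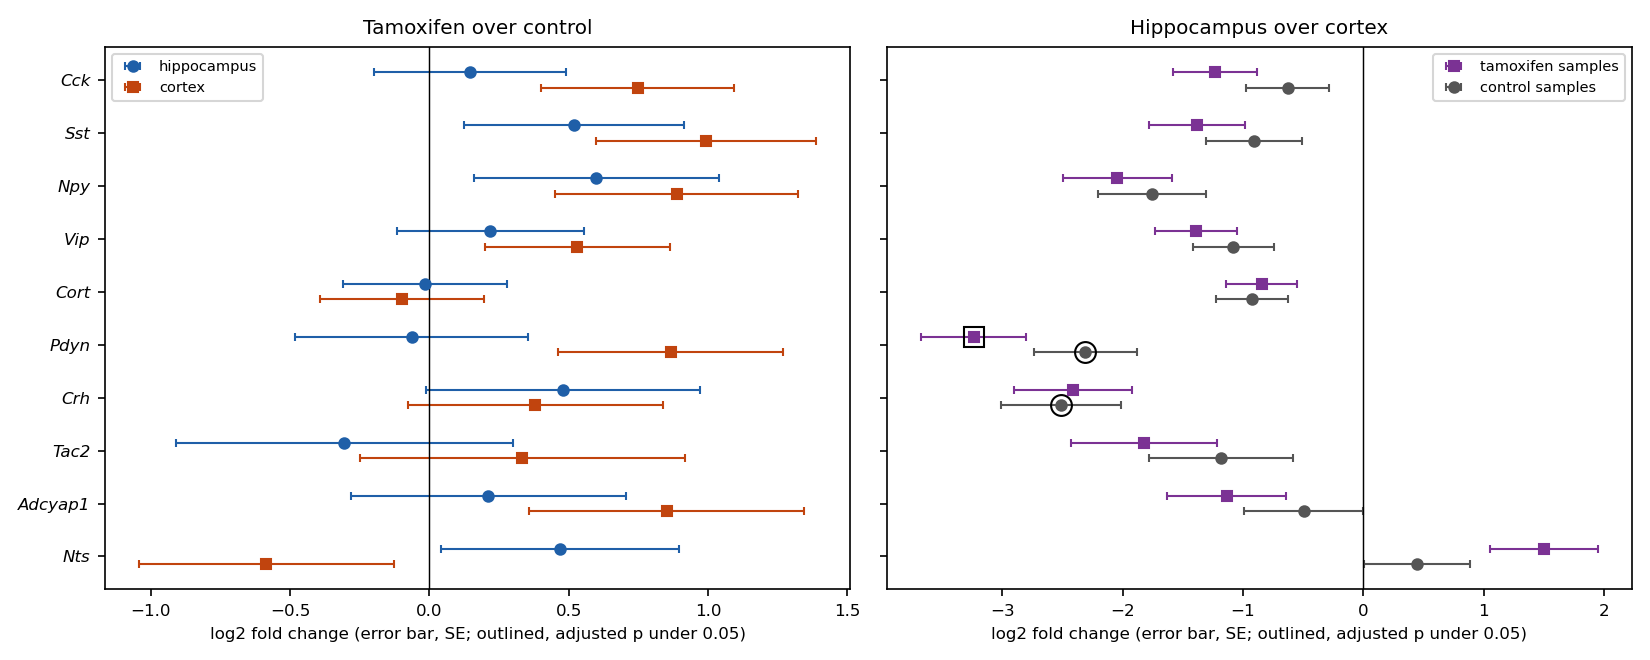
Log2 fold changes with SE for tamoxifen over control in hippocampus (circles) and cortex (squares), left, and for hippocampus over cortex in tamoxifen samples (squares) and controls (circles), right; outlined symbols passed an adjusted p of 0.05. The 3 outlined symbols are Pdyn in both region comparisons and Crh in controls, and Nts is the single gene right of 0 in both of them.

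Of 21 receptor genes of these peptides 18 were tested between the regions. Under tamoxifen 1 was called higher and 1 lower in hippocampus, where 0.426% of all genes were called higher and 0.692% lower. In controls 1 was called higher and 2 lower, where 2.71% were called higher and 3.48% lower. Npy2r, a presynaptic neuropeptide Y receptor, had 2.35 and 3.09 CPM in hippocampal controls, against 0.267 and 0.248 CPM in cortical controls, a log2 fold change of 3.02 (SE 0.32, adjusted p = 0.0181). Cckbr, the main brain receptor of cholecystokinin, had 2.81 and 2.61 CPM in hippocampal controls, against 12.3 and 12.6 CPM in cortical controls (-2.58, SE 0.38, adjusted p = 0.0260). Crhr1, which binds corticotropin-releasing hormone, was lower too (-1.40, SE 0.27, adjusted p = 0.0374). Under tamoxifen Npy2r (1.88, adjusted p = 0.0474) and Cckbr (-2.43, adjusted p = 0.0438) passed and Crhr1 missed (-1.28, adjusted p = 0.0663). Without cortical tamoxifen sample B, Npy2r was at 2.11 (adjusted p = 0.0469) and Cckbr at -1.86 (adjusted p = 0.0389), and without any of the 6 samples outside the cortical tamoxifen group their adjusted p was 0.0812 to 0.224. In hippocampal controls Npy was 3.42 and 3.33 CPM, against 8.13 and 9.32 CPM in cortical controls, while its receptor Npy2r stood higher there, and Crh and Crhr1 both stood lower.

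As with Pdyn and Crh, no call in controls on a receptor, on the processing gene Pcsk1n or on the precursors Cartpt and Apln remained without any single control sample (adjusted p 0.0718 to 0.289). With a replicate block, Npy2r passed in controls (adjusted p = 0.0485) and no other of these calls did. In controls the adjusted p was then 0.0660 for Cckbr, 0.0797 for Crhr1, 0.0744 for Pcsk1n, 0.0717 for Cartpt and 0.0907 for Apln, and under tamoxifen it was 0.106 for both Npy2r and Cckbr.

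For tamoxifen against control, 0 of 18 receptors passed in either region. In cortex 15 of 18 were above 0 with a median of 0.65, and without sample B 10 of 18 were, with a median of 0.00. The 2 of smallest p, which did not pass, were Ntsr2, a neurotensin receptor of astrocytes (-0.49, SE 0.14), and Oprk1, the kappa opioid receptor for dynorphin (2.18, SE 0.70), both with an adjusted p of 0.830. Oprk1 had 0.431 and 2.61 CPM in cortical tamoxifen samples, against 0.329 and 0.201 CPM in controls, so sample B was high here as well. In hippocampus the 2 of smallest p were Adcyap1r1, the PACAP receptor (0.42, SE 0.14), and Ntsr2 (0.33, SE 0.14), both with an adjusted p of 1. For the difference between regions they were Ntsr2 (0.83, SE 0.19) and Adcyap1r1 (0.58, SE 0.20), with an adjusted p of 0.889. Ntsr2 had 218.5 and 171 CPM in hippocampal tamoxifen samples, against 162 and 154 CPM in hippocampal controls. It had 97.9 and 128 CPM in cortical tamoxifen samples, against 134 and 143 CPM in cortical controls. Ntsr2 thus lay in opposite directions, as its ligand Nts did, where 7.78% of all genes did so without overlap. Npy2r ran the reverse way, higher in cortex and lower in hippocampus, while its ligand Npy overlapped in both. A link between Ntsr2 and Nts was not tested. Astrocyte markers moved the same way as Ntsr2, with medians of 0.32 in the hippocampal and -0.41 in the cortical log2 fold changes. Their part in the values of Ntsr2 was not tested.

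All 20 genes of peptide processing and dense-core granules were tested. In controls 1 was called lower in hippocampus, Pcsk1n, which encodes an inhibitor of prohormone convertase 1 (-0.99, SE 0.22, adjusted p = 0.0454), and 0 were called higher. This 1 call among 20 genes is near the 3.48% of all genes called lower there. Under tamoxifen 0 passed. For tamoxifen against control 0 of 20 passed in either region. In cortex 15 of 20 were above 0 (median 0.47), and 11 of 20 without sample B (median 0.03), and in hippocampus 15 of 20 were (median 0.26). The 2 of smallest p in cortex, neither of which passed, were the convertase Pcsk5 (0.87, SE 0.25) and Scg5 (0.82, SE 0.32), a chaperone of prohormone convertase 2. Scg5 had 22.6 and 65.8 CPM in cortical tamoxifen samples, against 21.4 and 19.6 CPM in controls, a pattern like that of the members. In hippocampus they were Pcsk6 (0.41, SE 0.17) and Scg3 (0.28, SE 0.14). For the difference they were Scg3 (0.61, SE 0.20) and Cpe (0.61, SE 0.23), a carboxypeptidase that trims peptide ends.

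Of 41 other neuropeptide precursor genes 21 were tested, the rest having too few counts. In controls Cartpt (-2.30, SE 0.45, adjusted p = 0.0386) and Apln (-0.85, SE 0.19, adjusted p = 0.0454), which encode the CART and apelin peptides, were called lower in hippocampus, where 3.48% of all genes were, 0 were called higher, and under tamoxifen 0 passed. Tamoxifen against control gave 0 calls in either region. In cortex 10 of 21 were above 0 with a median of -0.02. Over the 18 of them with at least 30 counts in the other 3 cortical samples, the median ratio of sample B to those samples was 1.49, beside 2.81 for the 10 members. The 2 of smallest p were Adm (1.08, SE 0.37) and Edn1 (-0.98, SE 0.36), which encode adrenomedullin and endothelin 1. In hippocampus they were Trh (3.90, SE 1.17) and Cartpt (1.39, SE 0.44), and Trh rested on 53 and 10 counts in tamoxifen samples, against 2 and 2 counts in controls. For the difference they were Trh (4.69, SE 1.48) and Nucb2 (-0.67, SE 0.26).

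Over the 8 samples, the genes whose centred log2(CPM + 0.5) lay nearest to each member were sought among 12167 genes with a mean of at least 1 CPM. Sst was nearest to Syt1, Scn2a1 and Sncb, a synaptic vesicle calcium sensor, a sodium channel and a synuclein, at root-mean-square distances of 0.0942 to 0.0984 log2 units. Cck was nearest to Rasgrp1, Vopp1 and Tbc1d30 (0.0886 to 0.0975), Npy to Dpp10, Adra1b and Kcnh7 (0.151 to 0.176), and Vip to Atp6v1g2, Nlk and Dmtn (0.0480 to 0.0667). Pdyn was nearest to Hs3st2, Tbr1 and Sema3a (0.161 to 0.181), of which Tbr1 is a transcription factor of deep-layer cortical neurons. Cort was nearest to Mmd, Trappc6b and Fam149a (0.0661 to 0.0887). Crh, Nts, Adcyap1 and Tac2 had a mean under 1 CPM and were not compared. The samples behind these distances include cortical tamoxifen sample B, which all neighbours share.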

How the data were processed

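Total RNA was extracted with Trizol and sequenced as Illumina libraries, per the labels' protocols. The submitters' processing notes name STAR, HTSeq and the build mm10, without versions, annotation release or strand setting. The deposited files hold a raw count and an RPKM value for 39179 gene rows per library, per the file headers. RPKM by the authors was read but entered no test. Reads in no gene were left out: 27.5 to 35.4% of a library's counts aligned to several places, 3.64 to 7.93% lay outside genes and 1.38 to 1.86% were ambiguous. Counts in genes were 33236178 to 57195203 per library.

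The labels number libraries 1 to 4 and name no animals. The median chi-square of a gene's counts was 2.59 to 2.80 times the Poisson value within libraries 1 and 2 or 3 and 4 at 20 to 200 counts, and 3.10 to 5.49 times above 2000 counts. Other pairs of a group gave 3.59 to 11.7 and 13.4 to 241 times. Such pairs thus differed by more than sampling noise, but less than other pairs, and were summed to 1 sample each.

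Genes were kept by filterByExpr (18074), scaled by TMM and modelled by group means in edgeR 4.0.16 (R 4.3.3, limma 3.58.1), robust quasi-likelihood test, Benjamini-Hochberg adjustment over all genes, threshold 0.05. SE is the log2 fold change over the square root of F. The script was tested on simulated data. The 10 genes, the other lists and the summing of libraries were chosen with earlier results of these data known. Named genes were the 10 members, the 3 nearest genes of each member above 1 CPM, list genes past the threshold or else the 2 of smallest p, and the most abundant marker of a list. Alternatives were RLE scaling, no scaling, no filter, a replicate block, DESeq2 1.42.0, 16 separate libraries, limma voom with correlated libraries and each sample left out; a crossed block was added after the data were seen. Figures used matplotlib 3.10.9.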

Additional observations from a re-analysis of the deposited data

Results flagged for a closer look

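Nts was marked because its 2 tamoxifen samples lay above both controls in hippocampus and below both in cortex. The tamoxifen effect was 0.47 log2 units in hippocampus and -0.59 in cortex, and their difference was 1.05 (SE 0.63, edgeR adjusted p = 0.912), which did not pass. The pattern rests on 53 and 77 counts against 45 and 51 in hippocampus, and on 18 and 16 counts against 24 and 22 in cortex. It held on the TMM scale and with mitochondrial genes left out of the total. Among all 18074 genes tested, 1406 (7.78%) lay in opposite directions without overlap.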

How the results depend on the processing

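The count of members called stayed at 0 for tamoxifen in hippocampus and for the difference between regions under every alternative run (DESeq2 gave no adjusted p for the difference), and for tamoxifen in cortex under all but the fit without cortical tamoxifen sample A, so leaving out samples gave 0 to 3. For hippocampus over cortex in controls the count was 2, and it was 0 with a replicate block, 4 with DESeq2 and 7 with 16 separate libraries. Over all genes, the alternatives that kept every sample called 72 to 6982 genes in that comparison. Under tamoxifen it was 1, and it was 0 with a replicate block and without scaling factors, 2 without a count filter, 5 with limma voom, 6 with DESeq2, 10 with 16 separate libraries and 0 to 8 with a sample left out. Over all genes, the alternatives that kept every sample called 0 to 5510 genes for hippocampus over cortex under tamoxifen. The number of genes called thus depends strongly on the setting, and the counts of members are to be read beside it. Leaving out a sample leaves 1 in its group, so those counts say little about the members. With the replicate block Pdyn had an adjusted p of 0.0740 in controls and 0.0907 under tamoxifen, and Crh 0.0627 in controls. The sample letters share no stated animal or batch: deviations from group means correlated at 0.35 between the cortical groups, 0.31 and 0.014 between the hippocampal controls and the cortical controls and tamoxifen samples, and -0.31, -0.44 and -0.50 between the hippocampal tamoxifen samples and the hippocampal controls, cortical controls and cortical tamoxifen samples. The crossed block, with the letters of the hippocampal tamoxifen samples exchanged, gave 3 members in controls and 1 under tamoxifen. The fit of 16 libraries treats likely repeats as replicates.

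Without scaling factors Cort turned to 0.13 in cortex and to -0.18 for the difference, and Crh to -0.20 for the difference. With a sample left out, cortical log2 fold changes that changed sign ran from -0.013 to 0.92 for Vip, -0.16 to 0.76 for Crh, -0.66 to 0.90 for Tac2 and -0.30 to 0.13 for Cort. In hippocampus they ran from -0.015 to 0.28 for Cck, -0.15 to 0.010 for Pdyn, -0.39 to 0.63 for Adcyap1, -0.66 to 0.17 for Tac2 and -0.15 to 0.13 for Cort. For the difference they ran from -1.02 to 0.42 for Sst, -0.81 to 0.49 for Npy, -0.70 to 0.23 for Vip, -1.08 to 0.12 for Cck, -0.28 to 0.64 for Crh, -1.20 to 0.35 for Tac2 and -0.15 to 0.28 for Cort. The cause was not tested. Counts under 100 per sample limit Crh, Nts, Tac2 and, in some samples, Adcyap1, Cort and Pdyn.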
